A study of Aethionema arabicum with 12 samples.

Results

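A week of darkness given to light-exposed seeds was compared with the state from which it started. The comparison used 6 of the 12 libraries of the series, chosen by their labels: 3 from seeds that had spent 7 d in white light and then 7 d in the dark, and 3 from seeds collected after the 7 d of light. Of 24932 gene models, 15301 carried enough counts over all 12 libraries to be tested. In the 6 libraries alone, 13711 did.

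The seeds were wild type (labelled WT) of *Aethionema arabicum*, an annual of the Brassicaceae, and of its Cyprus accession. All 4 groups of the series were intact seeds that had not germinated, imbibed at 14 °C on moistened filter paper, with white light at 100 µmol m-2 s-1 until any dark phase, and all 12 libraries came from polyadenylated RNA. The other groups, of 3 libraries each, had 1 d of light (23 h) and 14 d of light. Seeds of the dark week were 7 d older than their reference, so darkness and age cannot be told apart in this comparison, and the values at 14 d of light, the group of equal age, are given beside the main ones. Whether the libraries of a group stem from different batches of seed is not in the labels; p-values therefore rest on the spread among libraries alone, part of which may be technical. In whole seeds, fewer cells of a type and less RNA per cell cannot be told apart.

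Light keeps the seeds of some species from germinating, and prolonged exposure can put imbibed seeds into a second, induced dormancy; the series was made to study that state. In Arabidopsis, phytochromes and cryptochromes act through phytochrome-interacting factors (PIFs) and through the COP1/SPA complex, which marks light-signalling proteins for breakdown in the dark. Light also raises the genes for anthocyanins and other photoprotectants, while abscisic acid (ABA) holds a seed dormant and gibberellins (GA) promote its germination. Roles given below are those of the Arabidopsis partners that the deposited table pairs with the models.

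The 6 libraries held 1299536 to 2689668 counts. The libraries of 7 d light had 1596668 to 2689668 and those of the dark week 1299536 to 1900418, so the dark libraries were on the whole the shallower ones. On the first principal component of the 6 libraries, which held 56.4% of the variance, the 3 libraries of 7 d light lay at -41.1, -45.3 and -17.6 and the 3 of the dark week at 34.3, 45.2 and 24.5. Replicate 3 of 7 d light stood apart from its group: its counts fell with model length (-0.08 log2 units per doubling against 0.07 and 0.08), and its counts differed from those of replicates 1 and 2 by 5.86 and 5.55 times sampling noise (chi-square over degrees of freedom), against 1.3 between those replicates. Without it, 1751 models were called higher and 1933 lower. Replicate 2 of the dark week had a like slope (-0.08 against -0.01 and 0.05), and its counts differed from those of replicate 3 by 3.51 times sampling noise, where replicate 1 differed from these by 1.45 and 1.65 times; without it, 747 models were higher and 939 lower. At 14 d light, replicates 1 and 3 had slopes of -0.12 against 0.05 in replicate 2, and they differed from it by 7.68 and 6.33 times sampling noise, against 1.38 between each other. These libraries also set the shared estimate of spread, and without 14 d light replicate 2, 1912 models were called higher and 1888 lower.

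Among called models, those that fell after the dark week had a larger median change than those that rose. A model of low counts needs a larger change to pass, and low models were called lower more often. The part of level in this difference was not tested. At an adjusted p under 0.05 (edgeR quasi-likelihood test, Benjamini-Hochberg over all tested models), 1289 models rose and 1529 fell, 2818 in all or 18.4% of those tested: 8.42% higher and 9.99% lower. The median log2 fold change was 0.61 among the risen and -0.91 among the fallen. At least 2-fold changes were seen in 232 risen (1.52%) and 682 fallen models (4.46%), and at least 4-fold changes in 61 and 203. The 3 against 3 CPM values (counts over library totals adjusted by TMM scaling) did not overlap in 5132 models (33.5%), among them 2762 of the 2818 called. Scaled by total counts alone, 968 models were called higher and 1832 lower, in place of 1289 and 1529. The excess of lower calls was not stable: DESeq2 called 1199 higher and 1198 lower, and with trends on model length and read density removed 1805 were higher and 1732 lower. The number called was 1705 or 1645 without replicate 1 or 2 of 7 d light and 1609 or 1686 without replicate 1 or 2 of the dark week, and 552 risen and 675 fallen models kept their call in all 12 fits with 1 library left out.

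Low models were called lower more often and high models higher. Of 2326 models under 8 CPM on average, 55 rose and 250 fell, and of 4211 between 8 and 32 CPM, 212 rose and 618 fell. Between 32 and 128 CPM, 674 rose and 584 fell among 6386, and above 128 CPM, 348 rose and 77 fell among 2348. Depth moved with the group as well. With all 12 libraries thinned to the size of the smallest, 187 models rose and 56 fell above 128 CPM, and 90 rose and 313 fell between 8 and 32 CPM. With trends on model length and read density removed from each library, the numbers were 444 and 212 above 128 CPM, and 369 and 546 between 8 and 32 CPM.

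**Figure D1:**
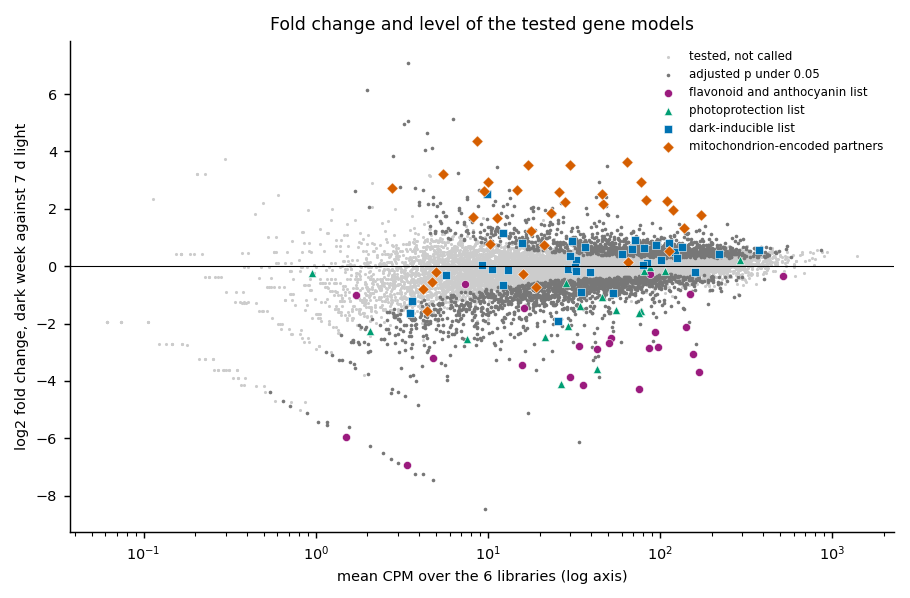
Log2 fold change of the dark week against 7 d light (vertical axis) by mean CPM over the 6 libraries (horizontal log axis), with 1 point per tested model with counts in these libraries. Dark grey points passed an adjusted p of 0.05, and coloured points are members of 3 gene lists and the models with mitochondrion-encoded partners. Flavonoid members sit below 0 with a median of -2.81, while models with mitochondrion-encoded partners sit mostly above it with a median of 1.95.

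Genes of flavonoid and anthocyanin synthesis gave the broadest decline of any list. Of 23 tested members 19 fell and none rose, with a median log2 fold change of -2.81 against -0.03 over all tested models. With the 2 members that had no dark count set to their bound, the median was -2.78. No member was higher at an unadjusted p under 0.05 or by DESeq2. Their summed level was 2628, 2665 and 3238 CPM after 7 d light, 941, 939 and 849 after the dark week and 4017, 2703 and 3545 at 14 d light. The decline ran from the phenylpropanoid entry to the last sugar transfers. PAL1 (Aa31LG5G22310), phenylalanine ammonia-lyase at the entry to the pathway, was at 319, 314 and 314 CPM in the 3 libraries of 7 d light and at 24.3, 18.7 and 28.9 CPM after the dark week. Its log2 fold change was -3.69 (SE 0.15, adjusted p = 4.0e-08), and at 14 d light it was at 389, 307 and 332 CPM. The next enzymes fell too: cinnamate 4-hydroxylase, C4H, with a log2 fold change of -2.11 (SE 0.13, adjusted p = 6.3e-07), and 4-coumarate:CoA ligase, 4CL1 (Aa31LG10G3110), with -3.46 (SE 0.44, adjusted p = 2.3e-04). All 3 kept their call in each of the 12 fits with 1 library left out.

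Among enzymes that build the flavonoid rings, DFR, dihydroflavonol reductase on the way to anthocyanins, was at 68.2, 56.5 and 78.9 CPM before and 4.06, 3.26 and 3.88 CPM after the dark week. The groups lay far apart, with a log2 fold change of -4.14 (SE 0.28, adjusted p = 1.5e-06). FLS1 (Aa31LG3G17900), the flavonol synthase, went from 53.1, 48.1 and 68.7 to 5.41, 4.07 and 2.22 CPM, a log2 fold change of -3.87 (SE 0.27, adjusted p = 2.4e-06). Its partner is shared by 3 models, so reads of the copies may be split among them. F3'H, the flavonoid 3'-hydroxylase, had a log2 fold change of -2.31 (SE 0.12, adjusted p = 2.1e-07). The rule for naming genes left out chalcone synthase, CHS, the committed step, and it is added here after its values were seen: 250.4, 247 and 336 CPM before and 39.9, 28.5 and 31.1 CPM after, with a log2 fold change of -3.06 (SE 0.22, adjusted p = 2.4e-06). Likewise added, chalcone isomerase CHI had a log2 fold change of -2.51 (SE 0.18, adjusted p = 2.4e-06), and both models of anthocyanidin synthase, ANS, -2.81 and -2.78.

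The sugar transfers that finish anthocyanins fell as far. UGT79B1, which adds xylose to anthocyanins, was at 140.1, 129 and 163 CPM and then at 8.12, 4.89 and 8.32 CPM, with a log2 fold change of -4.29 (SE 0.22, adjusted p = 1.9e-07). UGT75C1, the anthocyanin 5-glucosyltransferase, had -2.87 on the log2 scale (SE 0.15, adjusted p = 1.9e-07). UGT78D2, a flavonoid 3-glucosyltransferase, was at 5.53, 6.62 and 8.27 CPM before and had no count in the 3 dark libraries. Against the limit of 3 counts over that group, it was at least 9.86-fold lower. A UDP-glycosyltransferase outside the list, Aa31LG9G1940, showed one of the strongest falls of all: 75.6, 54.3 and 70.0 CPM before, 2.71, 0 and 0 CPM after and 53.3, 71.3 and 75.7 CPM at 14 d light.

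Regulators of the pathway fell too. The bHLH factor TT8 went from 8.48, 9.70 and 7.63 to 1.35, 1.63 and 0 CPM (log2 fold change -3.21, SE 0.63, adjusted p = 0.0042), and at 14 d light its libraries held 1.18, 6.97 and 1.499 CPM. MYB12, a regulator of flavonol genes, had -1.47 on the log2 scale (SE 0.29, adjusted p = 0.0044). The anthocyanin MYB factor PAP1, added after its values were seen, went from 82.6, 66.2 and 115 to 13.5, 13.9 and 13.3 CPM with a log2 fold change of -2.68 (SE 0.27, adjusted p = 4.3e-05). TT19, a glutathione S-transferase that carries anthocyanins, fell less (log2 fold change -0.96, SE 0.24, adjusted p = 0.014) and lost its call when any 1 of the 3 dark libraries was left out, with an adjusted p of 0.051 to 0.056. The 4 members that did not pass included F3H, flavanone 3-hydroxylase, which was at 477, 556 and 719 CPM before and 471, 499 and 413 CPM after, with overlapping groups and a log2 fold change of -0.34 (SE 0.21, adjusted p = 0.28). It too was added after its values were seen. Against 14 d light, a comparison that shares the dark libraries, 19 of the 23 were lower and none higher, where 7.02% of all tested models were lower, 6.05% higher and 13.1% called in all.

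**Figure D2:**
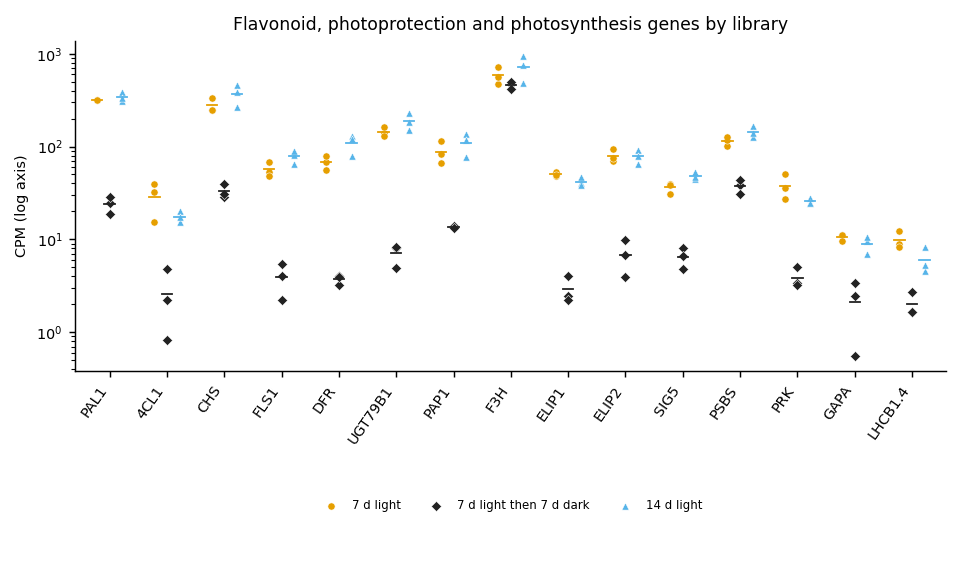
CPM of each library (log axis) for 15 genes of flavonoid synthesis, photoprotection and photosynthesis after 7 d light (orange circles), 7 d light then 7 d dark (black diamonds) and 14 d light (blue triangles), with bars at the group means of 3 libraries. Except in F3H, whose dark libraries at 413 to 499 CPM overlap the 477 to 719 of 7 d light, every dark library lies under every library of both light groups.

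Photoprotection genes likewise held calls for lower levels only. Of 17 tested members 12 fell and none rose, also at an unadjusted p under 0.05 or by DESeq2, with a median of -1.55 on the log2 scale. ELIP1 (Aa31LG8G9340), an early light-induced protein that binds pigments under light stress, was at 48.3, 52.9 and 49.6 CPM before and 4.06, 2.44 and 2.22 CPM after the dark week, a log2 fold change of -4.10 (SE 0.20, adjusted p = 1.9e-07). ELIP2 (Aa31LG8G9320) went from 69.7, 75.4 and 94.8 to 6.76, 9.78 and 3.88 CPM, with -3.60 on the log2 scale (SE 0.24, adjusted p = 1.5e-06). At 14 d light ELIP1 was at 40.3, 38.5 and 46.5 CPM and ELIP2 at 91.2, 65.2 and 79.5 CPM, far above the dark libraries. SIG5, a nuclear-encoded sigma factor for plastid transcription that answers to light, went from 39.8, 30.9 and 38.2 to 4.73, 8.15 and 6.66 CPM (log2 fold change -2.48, SE 0.20, adjusted p = 7.6e-06). PHR1, the photolyase that repairs cyclobutane dimers, had a log2 fold change of -2.08 (SE 0.19, adjusted p = 1.6e-05). CHLP, geranylgeranyl reductase for chlorophyll and tocopherol, had -1.57 on the log2 scale (SE 0.14, adjusted p = 1.9e-05). Each of these 5 kept its call whichever library was left out.

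Genes for photosynthesis itself moved unevenly. In the Calvin cycle and photorespiration list, 7 of 21 tested members fell (33.3%) and 3 rose (14.3%), with a median of -0.29. Over all tested models 9.99% fell and 8.42% rose. PRK, phosphoribulokinase, which makes the CO2 acceptor, was at 35.4, 50.7 and 27.4 CPM before and 3.38, 3.26 and 4.99 CPM after (log2 fold change -3.25, SE 0.30, adjusted p = 2.0e-05). GAPA, the plastid glyceraldehyde-3-phosphate dehydrogenase, had a log2 fold change of -2.38 (SE 0.38, adjusted p = 0.0011), and SHM1, the photorespiratory serine hydroxymethyltransferase, -1.81 (SE 0.22, adjusted p = 1.7e-04). SBPASE and FBA2, a phosphatase and an aldolase of the cycle, had log2 fold changes of -1.24 (SE 0.12) and -1.03 (SE 0.12). In the list of nuclear-encoded photosystem and antenna genes, 11 of 32 fell (34.4%), 2 rose (6.25%) and the median was -0.11. The antenna gene LHCB1.4 went from 12.2, 8.82 and 8.27 to 2.71, 1.63 and 1.66 CPM (log2 fold change -2.30, SE 0.34, adjusted p = 7.6e-04), and the photosystem II subunit PSBY had -1.37 (SE 0.21, adjusted p = 9.4e-04). The 2 members that rose, added after their values were seen, were the minor antenna genes LHCB5 at 0.51 on the log2 scale (SE 0.11, adjusted p = 0.0076) and LHCB4.2 at 0.51 (SE 0.13, adjusted p = 0.016).

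Chlorophyll synthesis had 8 of 21 tested members lower, none higher (0 also at an unadjusted p under 0.05 or by DESeq2) and a median of -0.39. HEMC, porphobilinogen deaminase, was at 61.2, 71.0 and 62.3 CPM before and 29.1, 26.9 and 32.2 CPM after (log2 fold change -1.13, SE 0.15, adjusted p = 3.5e-04), and GSA1, which makes 5-aminolevulinate, had -0.82 (SE 0.11, adjusted p = 2.7e-04). Both are among the 4 of the 8 that kept their call in all 12 fits with 1 library left out. Scaled by total counts alone, 13 members were called lower. Of 15 tested genes of chlorophyll breakdown and senescence, 3 rose and 2 fell (median 0.19). ORS1, a senescence-promoting NAC factor, went from 4.43, 4.41 and 9.54 to 30.4, 15.5 and 12.2 CPM (log2 fold change 1.74, SE 0.38, adjusted p = 0.0069), and it was at 17.77, 15.6 and 21.0 CPM at 14 d light. The sucrose transporter SAG29 fell by contrast, from 23.2, 17.64 and 31.2 to 4.06, 2.44 and 1.11 CPM (log2 fold change -3.23, SE 0.36, adjusted p = 8.9e-05), and so did PPH, pheophytinase, which removes the tail of the chlorophyll molecule (log2 fold change -0.54, SE 0.12, adjusted p = 0.0089).

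**Figure D3:**
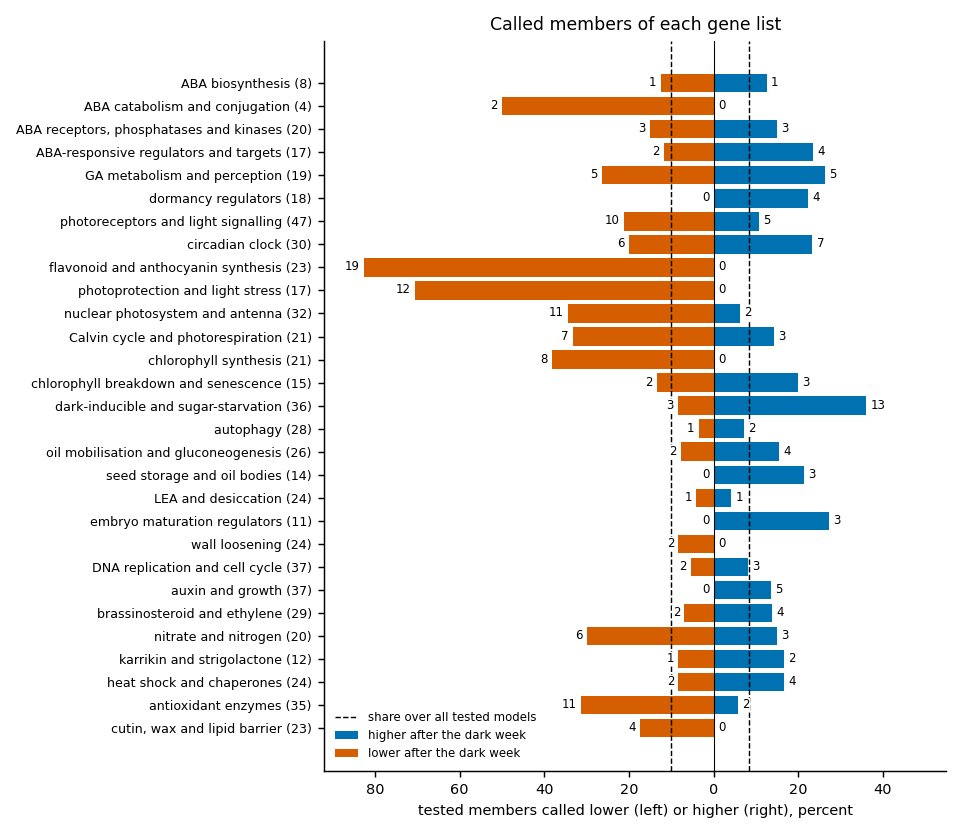
Share of the tested members of 29 gene lists (tested members in brackets) called lower (orange, to the left) or higher (blue, to the right) after the dark week against 7 d light, in percent of tested members, with counts at the bar ends. Dashed lines mark the shares over all tested models, 9.99% lower and 8.42% higher. The longest bars are 19 of 23 flavonoid and 12 of 17 photoprotection members to the left, and 13 of 36 dark-inducible members is the longest to the right.

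Light signalling genes were called lower more often than all tested models. Of 47 tested members of this list 10 fell (21.3%), 5 rose (10.6%) and 32 did not pass, where 9.99% of all tested models fell and 8.42% rose. The median was -0.35, against -0.03 over all tested models. The strongest fall of the list was in a gene of the SPA family, partners of COP1. The model, paired with SPA3 (Aa31LG10G2040), was at 18.1, 21.2 and 18.4 CPM in the 3 libraries of 7 d light, had no count in any dark library and was at 17.77, 18.0 and 14.2 CPM at 14 d light. It was at least 28.9-fold lower after the dark week, against a limit of 3 counts over the group. The other model with that partner (Aa31LG8G2520) went from 42.0, 48.1 and 42.6 to 13.5, 4.89 and 11.7 CPM (log2 fold change -2.09, SE 0.22, adjusted p = 6.2e-05), and reads of these copies may be split between them. SPA1 went from 118, 127 and 99.2 to 34.5, 39.1 and 46.6 CPM (log2 fold change -1.51, SE 0.18, adjusted p = 1.3e-04). COP1 itself was at 62.7, 65.3 and 49.6 CPM before and 58.2, 58.7 and 56.05 CPM after, groups that overlap, with a log2 fold change of -0.05 (SE 0.17). HY5, a central factor of the light response that COP1 targets, likewise overlapped (94.4, 80.7 and 133 and 68.98, 110.0 and 70.5 CPM, adjusted p = 0.46), while its relative HYH fell from 64.9, 64.8 and 104 to 25.02, 31.0 and 18.9 CPM (log2 fold change -1.65, SE 0.26, adjusted p = 0.0010).

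Among blue-light components, RPT2, which signals with phototropins, went from 77.1, 61.7 and 71.2 to 10.1, 15.5 and 5.55 CPM (log2 fold change -2.82, SE 0.23, adjusted p = 8.5e-06). ZTL, an F-box photoreceptor that sets the clock's pace, went from 80.4, 70.6 and 64.9 to 17.58, 17.9 and 25.5 CPM (log2 fold change -1.80, SE 0.15, adjusted p = 8.9e-06). BBX32, a B-box factor, had a log2 fold change of -2.81 (SE 0.44, adjusted p = 0.0011). The dark and light libraries did not overlap in any of the 3. At 14 d light RPT2 was at 84.1, 66.4 and 78.7 CPM, ZTL at 80.6, 81.2 and 75.7 CPM and BBX32 at 4.74, 6.15 and 8.25 CPM, each library above all dark ones.

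The members that rose were led by PHYA and PIF5. PHYA, the phytochrome that accumulates in darkness and senses far-red light, was at 141, 126 and 129.8 CPM before and 389.5, 273 and 425 CPM after the dark week, with a log2 fold change of 1.46 (SE 0.16, adjusted p = 6.6e-05). At 14 d light it was at 134, 128 and 103 CPM, and against those libraries the log2 difference was 1.58 (SE 0.16, adjusted p = 3.8e-05). PIF5, a growth-promoting PIF, rose from 9.22, 9.70 and 8.91 to 44.0, 35.0 and 35.5 CPM (log2 fold change 2.03, SE 0.23, adjusted p = 1.2e-04), against 7.11, 13.9 and 9.00 CPM at 14 d light. PIF1 (Aa31LG8G17110), the PIF that represses germination in dark-imbibed Arabidopsis seeds, rose by less, from 157, 153 and 134 to 209.6, 213 and 241 CPM (log2 fold change 0.58, SE 0.11, adjusted p = 0.0032). The other model with that partner (Aa31LG2G21580), a weakly expressed one, was at 4.79, 5.73 and 3.18 CPM before and 0.676, 1.63 and 2.77 CPM after and did not pass (log2 fold change -1.39, SE 0.51, adjusted p = 0.077); reads of these copies may be split between them. FHL, which carries phytochrome A into the nucleus, had 0.57 on the log2 scale (SE 0.12, adjusted p = 0.0052). PHYB, the main phytochrome of light-promoted germination, had 66.8, 76.7 and 38.8 CPM before and 42.6, 29.3 and 65.5 CPM after, overlapping groups with an adjusted p of 0.41. PHOT2, a phototropin, rose by 0.39 on the log2 scale, but its adjusted p was 0.051 to 0.089 when replicate 2 or 3 of 7 d light or any dark library was left out.

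Of 30 tested clock genes 7 rose and 6 fell, with a median of 0.14. LHY, CCA1 and RVE8, related MYB factors that open the Arabidopsis day, were among the risen, and the fallen were TOC1, PRR5, PRR9, LUX, ELF4 and GI. LHY was at 178, 201 and 152 CPM before and 361, 313 and 375 CPM after (log2 fold change 0.98, SE 0.16, adjusted p = 0.0016), and RVE8 had 0.58 (SE 0.10, adjusted p = 0.0019). LUX (Aa31LG4G15650), of the evening complex, went from 50.2, 44.5 and 47.7 to 16.9, 13.0 and 17.2 CPM (log2 fold change -1.58, SE 0.15, adjusted p = 2.1e-05). PRR9, a repressor of LHY and CCA1, went from 51.3, 37.0 and 48.3 to 9.47, 17.1 and 12.8 CPM (log2 fold change -1.81, SE 0.23, adjusted p = 2.0e-04). GI, which works with ZTL, had -1.23 on the log2 scale (SE 0.26, adjusted p = 0.0067) and PRR5 (Aa31LG11G3720) -1.07 (SE 0.21, adjusted p = 0.0042). A second model of LUX (Aa31LG1G11910) and of PRR5 (Aa31LG1G29300) did not pass. Their log2 fold changes were -0.70 to -0.41 and -0.20 to 0.12 over the main and alternative fits. CCA1, at 0.81 on the log2 scale (SE 0.23, adjusted p = 0.028), and TOC1, at -1.33 (SE 0.31, adjusted p = 0.010), lost their calls with 1 library left out: CCA1 without 7 d light replicate 2 or dark replicate 3 (adjusted p 0.058 to 0.13), TOC1 without 7 d light replicate 1 (adjusted p 0.054). ELF3 was at 412, 449 and 393 and 442, 436 and 462 CPM, groups that overlap. The other risen members were CCR2 (Aa31LG8G13650), PRR3, CHE and LNK4. In all, 3 of the 7 risen and 4 of the 6 fallen clock genes kept their call in all 12 fits with 1 library left out. ELF4 (log2 fold change -1.69, SE 0.47, adjusted p = 0.026) lost it without 7 d light replicate 2 or dark replicate 1 or 3 (adjusted p 0.076 to 0.11). PRR3 lost it without replicate 1 or 3 of 1 d light or replicate 1 or 2 of 7 d light or the dark week (adjusted p 0.050 to 0.14). LNK4 lost it without 7 d light replicate 1 or 2 or dark replicate 2 (adjusted p 0.052 to 0.055), and CCR2 without dark replicate 2 (adjusted p 0.050). The labels give no hour of collection, and its part in these values was not tested.

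**Figure D4:**
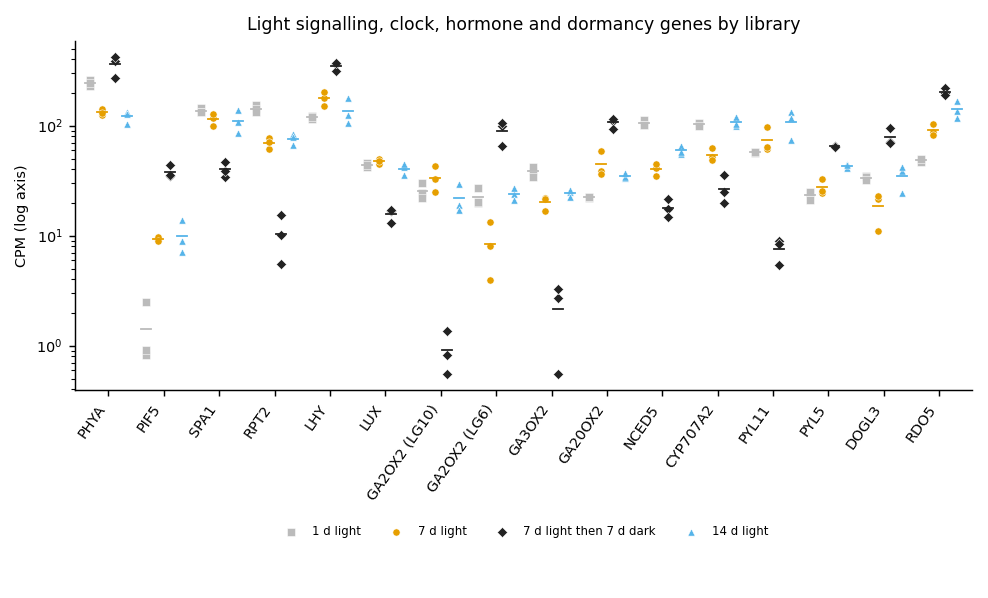
CPM of each library (log axis) for 16 genes of light signalling, the clock, GA, ABA and dormancy in 4 conditions: 1 d light (grey squares), 7 d light (orange circles), 7 d light then 7 d dark (black diamonds) and 14 d light (blue triangles), with bars at group means of 3 libraries. The GA2OX2 copies cross: the dark libraries hold 0.555 to 1.35 CPM of the model on LG10 and 65.2 to 105 CPM of that on LG6, against 24.7 to 42.6 and 3.97 to 13.4 at 7 d light.

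Genes of GA metabolism and perception held large changes in both directions. Of 19 tested members 5 rose and 5 fell, 26.3% each against 8.42% and 9.99% of all tested models, with a median of 0.32. In all 12 fits with 1 library left out, 3 of the risen and 4 of the fallen kept their call. With all libraries thinned to the smallest, 4 were higher and 2 lower. GA 2-oxidases inactivate gibberellins, and the pair of models with the partner GA2OX2 moved in opposite directions. Model Aa31LG10G6850 was at 32.5, 24.7 and 42.6 CPM before and 1.35, 0.815 and 0.555 CPM after the dark week (log2 fold change -5.12, SE 0.47, adjusted p = 1.9e-05). Model Aa31LG6G5630 was at 8.11, 3.97 and 13.4 CPM before and 98.7, 65.2 and 105 CPM after (log2 fold change 3.49, SE 0.29, adjusted p = 8.3e-06). At 14 d light the first was at 19.0, 17.2 and 29.2 CPM and the second at 23.7, 27.1 and 21.0 CPM, and dark libraries lay outside that range in both cases. Reads of these copies may be split between them. GA3OX2, which makes the active hormone, fell from 16.6, 22.1 and 21.6 to 2.71, 3.26 and 0.555 CPM (log2 fold change -3.27, SE 0.35, adjusted p = 6.6e-05), with 24.9, 25.8 and 22.5 CPM at 14 d light. GA20OX2, the step before it, rose from 38.7, 36.2 and 59.2 to 111, 93.7 and 116 CPM (log2 fold change 1.29, SE 0.16, adjusted p = 1.7e-04), with 33.2, 34.4 and 37.5 CPM at 14 d light.

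Downstream of the hormone, the receptor gene GID1A rose from 214, 184 and 216 to 333, 314 and 304 CPM (log2 fold change 0.63, SE 0.11, adjusted p = 0.0025). RGL2, the DELLA repressor of germination, did not pass: 202, 206 and 242 CPM before and 260.4, 288 and 259 CPM after, a log2 fold change of 0.31 (SE 0.12, adjusted p = 0.095). RGL1, another DELLA gene, had 5.90, 5.73 and 5.72 CPM before and 1.35, 0 and 0 CPM after, with 2 counts in the dark libraries in all. The ratio of its counts was 13.1-fold lower with an exact 95% interval of 3.38 to 112 for counting error only. RGA, a further DELLA gene, and GID1B, a receptor gene, were called higher at 0.59 and 1.17 on the log2 scale. The adjusted p of RGA was 0.058 to 0.066 without 7 d light replicate 1 or dark replicate 1 or 3, and that of GID1B 0.056 to 0.14 without any 7 d light library or dark replicate 1 or 3. Also called lower were GA2OX8 (Aa31LG1G18360) and GASA4 (Aa31LG11G14310). Their log2 fold changes were -5.79 to -2.95 and -2.36 to -1.55 over the main and alternative fits. GA2OX8 lost its call without dark replicate 1 or 2 (adjusted p 0.052 to 0.062), and GASA4 with all libraries thinned to the smallest.

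In ABA metabolism, a synthesis gene and a breakdown gene fell together. NCED5, of the rate-limiting dioxygenases of ABA synthesis, was at 35.0, 41.5 and 44.5 CPM before and 17.58, 14.7 and 21.6 CPM after (log2 fold change -1.13, SE 0.16, adjusted p = 6.4e-04). CYP707A2, the 8'-hydroxylase that breaks down ABA in imbibed seeds, was at 62.7, 51.6 and 48.3 CPM before and 19.6, 35.8 and 24.97 CPM after (log2 fold change -1.05, SE 0.18, adjusted p = 0.0020). At 14 d light NCED5 was at 55.7, 66.0 and 57.7 CPM, a log2 difference from 7 d light of 0.60 (SE 0.14, adjusted p = 0.11). CYP707A2 was higher there, at 119.7, 98.8 and 103 CPM (log2 difference 0.96, SE 0.16, adjusted p = 0.018), so the dark libraries lay below both light groups in each case. NCED6 was at 104, 84.2 and 84.6 and 121, 93.7 and 124 CPM and NCED9 at 21.0, 18.5 and 21.0 and 27.7, 12.2 and 13.9 CPM, and neither passed. Over all tested models 8.42% were higher and 9.99% lower. The synthesis list had 1 of 8 higher and 1 lower, 12.5% each (median -0.16), and the catabolism list 2 of 4 lower (median -0.67). The risen one was ABA2, a xanthoxin dehydrogenase gene (log2 fold change 0.60, SE 0.19, adjusted p = 0.039), which lost its call without replicate 2 or 3 of 1 d or 7 d light or any dark library (adjusted p 0.051 to 0.17) and by DESeq2. The other fallen one was UGT71C5, an ABA glucosyltransferase gene (log2 fold change -0.31, SE 0.09, adjusted p = 0.038), which lost its call without any 1 of the libraries of 1 d light, 7 d light or the dark week (adjusted p 0.067 to 0.16) and by DESeq2.

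ABA perception also changed at single genes, with 3 of 20 receptor, phosphatase and kinase genes higher, 3 lower and a median of 0.05. These shares were 15.0% each, against 8.42% and 9.99% of all tested models. PYL11, a receptor gene, fell from 60.8, 63.5 and 98.0 to 5.41, 8.96 and 8.32 CPM (log2 fold change -3.26, SE 0.31, adjusted p = 2.6e-05), with 134, 74.2 and 117 CPM at 14 d light; its partner is shared by 2 models. PYL5, another receptor gene, rose from 24.3, 25.6 and 33.1 to 64.2, 66.0 and 64.4 CPM (log2 fold change 1.25, SE 0.13, adjusted p = 6.2e-05), with 41.5, 45.1 and 43.5 CPM at 14 d light. PYL9 (Aa31LG1G10700) had 0.94 on the log2 scale (SE 0.19, adjusted p = 0.0049), and the phosphatase gene HAI2 -0.93 (SE 0.21, adjusted p = 0.0089). A second PYL9 model, Aa31LG10G15670, did not pass, at -0.18 to 0.49 on the log2 scale over the main and alternative fits. Of 17 responsive genes and regulators 4 rose and 2 fell (median 0.37), of which 2 and 1 kept their call in all 12 fits. ABF3, a bZIP factor, had 1.05 on the log2 scale (SE 0.23, adjusted p = 0.0079) and ABI4, which represses germination under ABA, -0.96 (SE 0.17, adjusted p = 0.0020). ABI3 and ABI5, central regulators of seed ABA responses, were at 177, 169.8 and 151 and 163, 146 and 168 CPM before and 179.9, 153 and 173 and 181, 187 and 155 CPM after, groups that overlap.

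Of 18 tested dormancy regulators 4 rose (22.2%) and none fell (1 at an unadjusted p under 0.05, 0 by DESeq2), with a median of 0.07. Over all tested models 8.42% rose and 9.99% fell. DOGL3, a relative of the dormancy gene DOG1, was at 21.8, 11.0 and 22.9 CPM before and 70.3, 95.3 and 69.9 CPM after the dark week (log2 fold change 2.08, SE 0.24, adjusted p = 1.3e-04), with 39.1, 24.6 and 42.0 CPM at 14 d light. RDO5, a phosphatase-like protein that strengthens dormancy, rose from 88.1, 82.0 and 104 to 198, 220.0 and 188 CPM (log2 fold change 1.15, SE 0.13, adjusted p = 1.3e-04), and at 14 d light it was at 167, 118 and 136 CPM. Against 14 d light the differences were smaller, 1.21 (SE 0.24, adjusted p = 0.0052) for DOGL3 and 0.54 (SE 0.13, adjusted p = 0.017) for RDO5. The NAC factor NAC060, which lessens ABA sensitivity, had 0.59 on the log2 scale (SE 0.11, adjusted p = 0.0025). DOG1 was at 38.0, 34.0 and 45.8 CPM before and 73.0, 66.0 and 56.05 CPM after (log2 fold change 0.74, SE 0.19, adjusted p = 0.019), a call lost without 7 d light replicate 1 or 2 or dark replicate 1 or 2 (adjusted p 0.054 to 0.084). MFT, at 198, 206 and 295 and 314, 354 and 271 CPM, and DOGL4, at 47.9, 31.8 and 73.8 and 42.6, 61.9 and 35.0 CPM, did not pass.

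Genes that Arabidopsis raises in darkness or sugar shortage were the list with the largest share of risen members. Of 36 tested, 13 rose, 3 fell and 20 did not pass, with a median of 0.22; 10 of the 13 kept their call whichever library was left out. DIN9, a mannose-6-phosphate isomerase gene named for its induction in the dark, was at 4.06, 1.32 and 3.18 CPM before and 21.0, 15.5 and 14.4 CPM after (log2 fold change 2.52, SE 0.32, adjusted p = 2.5e-04). ASN1/DIN6, asparagine synthetase, the classic dark-induced gene, rose less, from 103, 91.3 and 117 to 169.7, 177 and 146 CPM (log2 fold change 0.67, SE 0.13, adjusted p = 0.0034), and at 14 d light it was at 153, 117 and 137 CPM. The bZIP factor BZIP63, a target of the SnRK1 energy kinase, had 1.17 on the log2 scale (SE 0.23, adjusted p = 0.0044) and EXL2 (Aa31LG3G17570), of the exordium family, 0.92 (SE 0.13, adjusted p = 4.1e-04). A second EXL2 model, Aa31LG1G17640, did not pass, at 0.33 to 0.80 on the log2 scale over the main and alternative fits.

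Among the 13 were genes of branched-chain amino acid breakdown, of which other listed members did not pass. IVD, isovaleryl-CoA dehydrogenase, rose from 90.4, 80.7 and 75.1 to 157, 152 and 123 CPM (log2 fold change 0.80, SE 0.11, adjusted p = 5.5e-04), with 82.9, 86.9 and 85.5 CPM at 14 d light. BCDH, of the keto acid dehydrogenase, had 0.65 on the log2 scale (SE 0.10, adjusted p = 8.3e-04), the transaminase BCAT2 0.67 (SE 0.15, adjusted p = 0.0078) and the carboxylase subunit MCCA 0.59 (SE 0.12, adjusted p = 0.0052). The other carboxylase subunit, MCCB, at 0.23 (SE 0.22) on the log2 scale, and DIN3, an acyltransferase subunit of the keto acid dehydrogenase complex, at -0.04 (SE 0.18), were without a call. So were ETFALPHA, ETFBETA and ETFQO, which pass on electrons from IVD, at -0.10, 0.04 and 0.21 (SE 0.14, 0.15 and 0.11). The SnRK1 kinase genes KIN10 and KIN11 did not pass (adjusted p = 0.060 and 0.52). PRODH1, proline dehydrogenase, fell from 72.3, 68.4 and 70.0 to 41.9, 35.8 and 31.6 CPM (log2 fold change -0.95, SE 0.14, adjusted p = 5.9e-04) and MIOX2, myo-inositol oxygenase, from 36.9, 33.1 and 52.8 to 11.5, 8.15 and 11.7 CPM (log2 fold change -1.91, SE 0.28, adjusted p = 6.7e-04). Of 28 autophagy genes 2 rose (7.14%) and 1 fell (3.57%), both under the shares over all tested models, 8.42% and 9.99% (median 0.15). Among the risen, the cargo receptor NBR1 had 0.61 on the log2 scale (SE 0.12, adjusted p = 0.0040). Without replicate 3 of 7 d light, 8 autophagy genes were called higher. The hexose carrier STP1, named under the sugar transporters, rose from 4.06, 4.41 and 6.36 to 14.9, 13.0 and 12.2 CPM (log2 fold change 1.48, SE 0.22, adjusted p = 8.0e-04).

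Of 37 tested auxin and growth genes 5 rose (13.5%) and none fell, where 8.42% of all tested models rose and 9.99% fell. In this list 3 were lower at an unadjusted p under 0.05 and 0 by DESeq2 (median 0.08). HAT2 (Aa31csc39G40) and HAT4, homeodomain factors that shade raises in Arabidopsis, went from 7.74, 10.6 and 6.36 to 28.4, 22.8 and 26.6 CPM (log2 fold change 1.63, SE 0.21, adjusted p = 2.4e-04) and from 11.1, 15.9 and 10.8 to 37.2, 30.1 and 37.2 CPM (log2 fold change 1.47, SE 0.23, adjusted p = 0.0010). IAA13, an auxin signalling repressor, had 1.17 on the log2 scale (SE 0.21, adjusted p = 0.0025). In the brassinosteroid and ethylene list 4 of 29 were higher (13.8%) and 2 lower (6.90%), with a median of 0.15. Its member DWF1, a sterol reductase of brassinosteroid synthesis, rose from 18.4, 12.3 and 20.4 to 62.9, 40.7 and 72.1 CPM (log2 fold change 1.82, SE 0.22, adjusted p = 1.4e-04), with 14.2, 17.2 and 16.5 CPM at 14 d light. KAI2, the karrikin receptor gene, rose from 87.8, 84.7 and 121 to 227, 257 and 201 CPM (log2 fold change 1.23, SE 0.18, adjusted p = 7.5e-04), one of 2 of 12 karrikin and strigolactone genes that rose (median -0.46), and KUF1, an F-box gene that karrikins raise, was the 1 that fell (log2 fold change -1.92, SE 0.38, adjusted p = 0.0042).

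Cell wall families held calls in both directions. Of 63 tested models of pectin modification 4 rose (6.35%) and 10 fell (15.9%), of which 2 and 3 kept their call in all 12 fits (median -0.32). Of 9 xyloglucan endotransglucosylases 1 rose and 1 fell, 11.1% each (median -0.40, or 0.12 with 1 member at its bound). Over all tested models 8.42% rose and 9.99% fell. XTH11, the risen xyloglucan endotransglucosylase, was at 16.96, 19.0 and 8.91 CPM before, 81.2, 79.8 and 84.9 CPM after and 16.6, 20.5 and 14.2 CPM at 14 d light (log2 fold change 2.40, SE 0.20, adjusted p = 8.3e-06). Among the risen pectin models, 1 of the invertase and pectin methylesterase inhibitor superfamily (Aa31LG2G310) went from 5.90, 9.70 and 12.1 to 33.8, 31.8 and 36.6 CPM (log2 fold change 1.96, SE 0.21, adjusted p = 7.7e-05), while at 14 d light it was at 4.74, 3.28 and 2.25 CPM. A pectin acetylesterase (Aa31LG11G3170) had 2.04 on the log2 scale (SE 0.21, adjusted p = 4.5e-05). Among the fallen, a pectin lyase-like model (Aa31LG6G7040) went from 45.4, 44.5 and 45.8 to 25.02, 21.2 and 22.2 CPM (log2 fold change -0.98, SE 0.16, adjusted p = 0.0014). Of the 24 genes of the wall-loosening list none rose, 3 being higher at an unadjusted p under 0.05 and 0 by DESeq2, and 2 fell (median -0.14, or -0.04 with a member without dark counts at its bound). Cell cycle genes were mostly without a call: of 37 tested, 3 rose and 2 fell (median -0.31), the risen ones including KRP3 and KRP4, inhibitors of cyclin-dependent kinases, with 0.79 on the log2 scale (SE 0.15, adjusted p = 0.0037) and 0.70 (SE 0.13, adjusted p = 0.0025). Those that fell were both models of RNR1, the large subunit of ribonucleotide reductase; Aa31LG7G14770 had -1.31 on the log2 scale (SE 0.26, adjusted p = 0.0042), and the call of the other (Aa31LG6G15920) was lost without 7 d light replicate 1 or 2 or dark replicate 2 or 3 (adjusted p 0.061 to 0.086).

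HB21, a homeodomain factor that acts in the dormancy of Arabidopsis axillary buds, was among the most clearly separated of the risen genes. Its libraries held 22.1, 21.6 and 23.5 CPM before, 75.1, 86.4 and 71.0 CPM after and 30.8, 39.8 and 33.0 CPM at 14 d light, with a log2 fold change of 1.79 (SE 0.13, adjusted p = 2.8e-06). GRP17, a glycine-rich oleosin-domain protein known from pollen coats, went from 0.738, 2.21 and 3.18 to 29.1, 14.7 and 18.3 CPM (log2 fold change 3.46, SE 0.39, adjusted p = 1.1e-04). Both kept their call in all 12 fits with 1 library left out.

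Nitrogen genes had 6 of 20 tested members lower (30.0%) and 3 higher (15.0%), against 9.99% and 8.42% of all tested models, with a median of -0.04. NRT2.7, a nitrate carrier of the seed vacuole, went from 272, 313 and 291 to 171, 155 and 158 CPM (log2 fold change -0.86, SE 0.11, adjusted p = 1.8e-04). NIA2, nitrate reductase, had -1.10 on the log2 scale (SE 0.21, adjusted p = 0.0040) and the cytosolic glutamine synthetase GLN1.1 (Aa31LG2G2910) -1.25 (SE 0.18, adjusted p = 7.0e-04). Of 35 tested antioxidant genes 11 fell and 2 rose, with a median of -0.26; 6 of the 11 kept their call in all 12 fits. The glutathione peroxidase genes GPX2 and GPX1 had -1.60 on the log2 scale (SE 0.27, adjusted p = 0.0016) and -1.11 (SE 0.21, adjusted p = 0.0034). BIP2, an endoplasmic reticulum chaperone, fell from 145, 166 and 130.4 to 66.3, 57.0 and 69.9 CPM (log2 fold change -1.19, SE 0.12, adjusted p = 5.9e-05).

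GPAT4, an acyltransferase of cutin synthesis, was one of 4 of 23 barrier genes that fell (median -0.31). It was at 33.2, 49.4 and 24.2 CPM before, 2.03, 1.63 and 4.44 CPM after and 5.92, 10.7 and 5.25 CPM at 14 d light. The fall from 7 d light was -3.63 on the log2 scale (SE 0.39, adjusted p = 7.6e-05), and between 14 d and 7 d of light, where 0.307% of all tested models were called, it was -2.16 (SE 0.32, adjusted p = 0.011). The dark libraries differed from those of 14 d light by -1.48 (SE 0.55, adjusted p = 0.10), so a low level stood in both older groups. Of 18 tested aquaporins, which are water channels, 8 fell and 2 rose, with a median of -0.61, and 4 of the 8 kept their call in all 12 fits. Without replicate 3 of 7 d light 6 were lower, and with all libraries thinned to the smallest, 2. Among those that rose was NIP1;2, from 77.8, 80.3 and 104 to 192, 220.0 and 168 CPM (log2 fold change 1.15, SE 0.14, adjusted p = 1.5e-04).

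Models paired with organelle-encoded genes rose as groups, and their sums were at a like level in seeds of equal age kept in light. Of 33 tested models paired with mitochondrion-encoded Arabidopsis genes 18 rose and none fell, with a median of 1.95, and of 14 paired with plastid-encoded genes 8 rose and none fell, with a median of 1.11. At an unadjusted p under 0.05, 0 of the first group and 1 of the second were lower, and 0 of either by DESeq2. The summed level of the first was 797, 590 and 511 CPM before and 1978, 1946 and 2204 CPM after the dark week, and at 14 d light 1932, 2499 and 1514 CPM. The second stood at 543, 495 and 382 CPM, then 964, 905 and 1115 CPM, and at 1066, 1246 and 840 CPM at 14 d light. None of either group was called between the dark week and 14 d light, with 0 also at an unadjusted p under 0.05 and 0 by DESeq2. Between 14 d and 7 d of light, 1 of the 33 and 7 of the 14 were called higher, where 0.307% of all tested models were called. Without replicate 3 of 7 d light, 11 models of the first group and 7 of the second were called higher. The libraries were made from polyadenylated RNA, and its part in these values was not tested.

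Model Aa31sc227G10, whose partner encodes the large Rubisco subunit in the plastid, was at 12.9, 8.38 and 8.91 CPM before, 79.8, 75.0 and 82.1 CPM after and 114, 86.5 and 80.2 CPM at 14 d light (log2 fold change 2.93, SE 0.21, adjusted p = 2.5e-06). Model Aa31csc1168G30, paired with a subunit gene of the mitochondrial ATP synthase, was at 19.9, 15.4 and 17.81 CPM, 132, 169 and 112 CPM and 172, 87.3 and 128 CPM in the same order (log2 fold change 2.94, SE 0.54, adjusted p = 0.0029). Both calls held without any 1 library, as did those of 5 of the 18 with mitochondrion-encoded partners and 6 of the 8 with plastid-encoded partners in all. The models with the largest fold changes were among those that did not hold: Aa31csc239G40, Aa31csc705G10 and Aa31csc798G10, at log2 fold changes of 4.37 (SE 1.31), 3.64 (SE 1.03) and 3.53 (SE 0.97), each lost its call without 7 d light replicate 1 or 2 or any dark library. Their adjusted p values were then 0.062 to 0.11, 0.055 to 0.093 and 0.052 to 0.081. One library of 1 d light was also high, with a sum of 1508 CPM for the mitochondrial group against 274 and 357 in the others of that group.

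**Figure D5:**
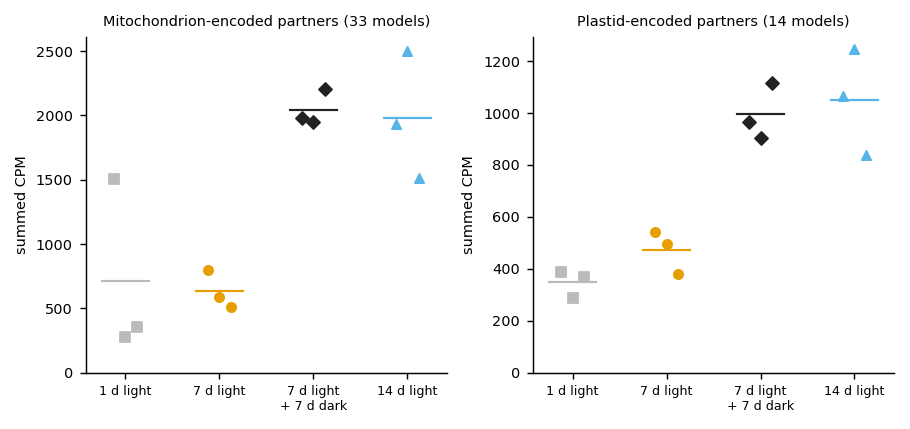
Summed CPM of the 33 tested models with mitochondrion-encoded partners (left) and the 14 with plastid-encoded partners (right) in each library of the 4 conditions, with bars at group means of 3 libraries. The dark libraries, at 1946 to 2204 and 905 to 1115 CPM, lie above all 7 d light libraries (511 to 797 and 382 to 543 CPM) and within the range of 14 d light (1514 to 2499 and 840 to 1246 CPM).

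Higher levels than at 7 d light were called in 8.42% of all tested models and lower ones in 9.99%. Seed storage genes had 3 of 14 tested members higher (21.4%) and none lower, with a median of 0.47. None was called against 14 d light, with 0 also at an unadjusted p under 0.05 and 0 by DESeq2. SESA4, a 2S albumin gene, was at 56.4, 64.8 and 84.6 CPM before, 211, 213 and 149 CPM after and 227, 126 and 196 CPM at 14 d light (log2 fold change 1.49, SE 0.25, adjusted p = 0.0015). Between the dark week and 14 d light its log2 difference was 0.08 (SE 0.24, adjusted p = 0.88). The summed level of the list was 3946, 4530 and 6188 CPM before and 6764, 7641 and 5653 CPM after, so replicate 3 of 7 d light, the library that stood apart, overlapped the dark libraries. Of the 3 calls, that of SESA4 alone held without any 1 library. Genes of late embryogenesis proteins had 1 of 24 higher and 1 lower, 4.17% each (median 0.31). The embryo maturation regulators had 3 of 11 higher, or 27.3% (median 0.08), among them WRI1, a regulator of oil synthesis, with 0.98 on the log2 scale (SE 0.16, adjusted p = 0.0012). The other risen regulators were FUS3 and BBM (0.64 and 0.50 on the log2 scale), which lost their calls by DESeq2, without replicate 1 of 7 d light and without dark replicate 1 or 2, FUS3 also without 7 d light replicate 2 and BBM also without dark replicate 3 (adjusted p 0.067 to 0.13 and 0.059 to 0.13 in these fits with 1 library left out). Of 26 genes of oil mobilisation 4 rose (15.4%) and 2 fell (7.69%), with a median of 0.05. Among the risen, LACS7, a peroxisomal acyl-CoA synthetase, had 0.55 on the log2 scale (SE 0.10, adjusted p = 0.0024). Of 24 heat shock genes 4 rose and 2 fell (median -0.11); of the risen, 1 kept its call in all 12 fits, HSP70B with 0.82 on the log2 scale (SE 0.14, adjusted p = 0.0020).

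Marker genes of seed and seedling tissues gave sums that overlapped in 3 of 5 lists. Endosperm markers (5 tested) summed to 192 to 218 CPM before and 195 to 206 CPM after, root markers (5 tested) to 66.2 to 94.4 and 56.2 to 67.7 CPM, and shoot apex and leaf markers (5 tested) to 42.6 to 52.0 and 46.6 to 57.8 CPM. Seed coat markers (3 tested) summed to 87.0 to 108 CPM before and 116 to 127 CPM after, and epidermis markers (4 tested) to 186 to 226 and 232 to 253 CPM, groups that do not overlap. Of these 22 models 1 was called, MUTE of the shoot list at 0.75 on the log2 scale (SE 0.16, adjusted p = 0.011), a call lost without 7 d light replicate 1 (adjusted p 0.059). EXPA2, an expansin gene of the endosperm at germination, and SPCH, which starts the stomatal lineage, had no count in any library of 7 d light, the dark week or 14 d light. The part of tissue shares in the other results was not tested.

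Of 207 tested pentatricopeptide repeat genes, which process organelle RNA, 29 fell and 2 rose (median -0.34), and 15 of the 29 kept their call in all 12 fits with 1 library left out. Without replicate 3 of 7 d light, 46 fell. Of 290 ribosomal protein genes 13 fell (4.48%) and 5 rose (1.72%), shares under those over all models. Without replicate 3 of 7 d light 11 fell and 16 rose, and with trends on model length and read density removed 50 fell and 13 rose, so this family had no stable direction. Over all tested models 9.99% fell and 8.42% rose. Of 199 RING and U-box genes 12 fell (6.03%) and 20 rose (10.1%), of which 2 and 10 kept their call in all 12 fits. Of 43 homeobox genes 4 fell (9.30%) and 9 rose (20.9%), of which 1 and 5 kept it. ABC transporters had 7 of 37 lower and 1 higher. MRP6, of the multidrug-resistance group, went from 105, 91.7 and 60.4 to 14.2, 18.7 and 12.2 CPM (log2 fold change -2.55, SE 0.24, adjusted p = 2.3e-05) and MRP2 from 177, 149 and 116 to 32.5, 33.4 and 62.7 CPM (log2 fold change -1.76, SE 0.28, adjusted p = 0.0012). ENODL2, an early nodulin-like protein of the cell surface, was among the 12 lowest of all, from 83.0, 104 and 61.1 to 7.44, 2.44 and 6.66 CPM (log2 fold change -3.85, SE 0.37, adjusted p = 3.0e-05), with 24.9, 55.7 and 27.7 CPM at 14 d light. A protein kinase, Aa31LG3G12370, was among the 12 highest, from 2.95, 1.32 and 3.18 to 21.0, 9.78 and 15.5 CPM (log2 fold change 2.66, SE 0.41, adjusted p = 9.4e-04).

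Models without an Arabidopsis partner numbered 595 among those tested, of which 60 rose and 30 fell, where 8.42% of all tested models rose and 9.99% fell. The far ends were Aa31csc39G110 at 2.37 on the log2 scale (SE 0.28, adjusted p = 1.3e-04) and Aa31LG5G21740 at 2.27 (SE 0.66, adjusted p = 0.032) among the risen; the call of the latter was lost without 7 d light replicate 1 or 2 or dark replicate 1 or 3 (adjusted p 0.051 to 0.15). The lowest were Aa31LG5G19160 at -2.02 on the log2 scale (SE 0.18, adjusted p = 1.9e-05) and Aa31sc222G60 at -1.34 (SE 0.20, adjusted p = 6.4e-04).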

How the data were processed

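RNA was measured by polyadenylated RNA sequencing of 12 seed libraries, made with the Lexogen SENSE kit and read on a HiSeq 2500, per the labels' protocols. The deposited table held raw counts per gene model, 1 column a library, as the authors made them, and the authors' RPKM values, which were not used here. Reads went through HTSeq 0.11.2 and Bowtie2 2.3.5.1, with Trimmomatic and bcl2fastq 2.17.1 also named, per the submitters' processing notes, which give no role for any of them. The same notes name the build TAIR10, while the models carry *Aethionema* identifiers; strand setting and handling of duplicate reads are not given in the sources. Among 23909 models of 300.0 bases or more, no value went over 1 count per base (highest 0.996). A limit of this kind, had the authors' processing set one, would compress the fold changes of abundant models; its part in the values was not tested.

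Counts were filtered with edgeR 4.0.16 (R 4.3.3; filterByExpr, 15301 of 24932 models kept, with 0.379% of counts in the rest), scaled by TMM and fitted by quasi-likelihood with 4 group means over all 12 libraries (common dispersion 0.0177). Benjamini-Hochberg adjustment ran over all tested models, at 0.05. CPM values are counts over library totals adjusted by the TMM scaling factors. Fold bounds used 3 counts over a group, and exact 95% intervals cover counting error only. The labels do not say whether replicate numbers pair the libraries, and the main fit had no replicate block. DESeq2 1.42.0 and other alternatives are in the closing section.

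Genes were named by a rule: the 12 highest and 12 lowest called models of at least 8 CPM with a partner and no overlap, up to 5 called members per list and 3 per family by adjusted p, every tested member of the ABA, GA, dormancy, light, clock, dark and marker lists, and 2 models each way without a partner. Members and lists were chosen with earlier results of these data known. The deposited table gave 21661 models an Arabidopsis partner and 3271 none, and symbols were assigned from the partners' identifiers. No sequence was used.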

Additional observations from a re-analysis of the deposited data

How the results depend on the processing

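The 2818 models called became 1752 in the fit of 9 libraries without 1 d light (777 higher, 975 lower), 1345 with all libraries thinned to the smallest (593 higher, 752 lower) and 1430 when tested against a 1.2-fold change (560 higher, 870 lower). The 6 libraries alone, with 13711 models tested, gave 2048 without a block (966 higher, 1082 lower). With the replicate number as a block they gave 473 (175 higher, 298 lower). With 1 library left out, 1609 to 3800 were called, 704 to 1912 higher and 884 to 1933 lower. Under that 6-library block, models called with at least 2-fold change numbered 402, against 914 in the main fit of 12 libraries, and called list members 82 against 207. With the replicate block in all 12 libraries, 2115 were called. The correlation of deviations between same-numbered libraries was -0.01, -0.31 and -0.47. Replicate 3 of 7 d light and replicate 2 of the dark week, whose slopes on model length were alike, gave 0.43. Library trends may enter these values, so they cannot decide whether the numbers mark shared batches of seed. DESeq2 called 2397 (1199 higher, 1198 lower), RLE scaling 2801, a stricter count filter 2745, no filter 2609 and removal of length and read density trends 3537 (1805 higher, 1732 lower). Without the models with organelle partners, an alternative chosen after seeing the data, 2786 were called. The cause of these shifts was not tested, except that the smaller fits and the thinned one hold fewer libraries or counts. Without replicate 3 of 7 d light, 19 flavonoid and 11 photoprotection members were lower and 14 dark-inducible members higher.

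None of the 2818 calls took the other sign in those of the 25 alternatives that tested the model. The alternatives share libraries with the main fit, so this is no separate evidence for the calls. Of 274 named genes with a call, 208 kept it in all 12 fits with 1 library left out and 126 in every alternative. Named genes called between 14 d and 7 d of light numbered 10, 20 with DESeq2 and 5 to 72 with 1 library left out (5 without 7 d light replicate 2, 72 without 14 d light replicate 2). With library totals from 916523 counts, changes in models under 8 CPM are the least certain.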
